A study of Mus musculus with 16 samples.

Results

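A set of 9 genes of triglyceride synthesis, Mogat1, Lpin1, Lpin2, Lpin3, Dgat1, Dgat2, Agpat2, Gpam and Gpd1, were followed in cultures of the mouse preadipocyte line 3T3-L1, which hormones can turn into fat cells. The members were the probes to which the platform's annotation gave exactly 1 of these symbols and no other gene. All 9 genes were found, with 14 of 38467 probes and among 19640 named genes. Lpin1 had 3 probes, Lpin2, Agpat2 and Gpam had 2 each, and the other 5 genes had 1 each. The set was chosen by the known dex responses of Mogat1 at 36 h and of Lpin1 at both times. Around these 2 genes the other 7 were listed for their place in the pathway, also with earlier results of these data known. The values of Mogat1 and Lpin1 in these comparisons are therefore a description and carry no test, and only the 2 h comparison of Mogat1 and the comparisons of the other 7 genes are given with adjusted p-values.

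Triglyceride is built on glycerol 3-phosphate, which Gpd1 makes from a glycolytic intermediate. Gpam, a mitochondrial glycerol-3-phosphate acyltransferase, adds the first fatty acid, Agpat2 adds the second to give phosphatidic acid, and the lipins (Lpin1 to Lpin3) remove the phosphate to give diacylglycerol. Mogat1 reaches diacylglycerol by another route, by acylating monoacylglycerol, and Dgat1 and Dgat2 add the last fatty acid. Adipocytes store energy through this pathway, and loss of Lpin1 in mice or of AGPAT2 in humans leads to a lack of fat tissue.

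The study asked which genes respond to dexamethasone (dex), a drug that activates the glucocorticoid receptor. Cultures were kept with dex or with the vehicle DMSO for 2 or 36 h, with 4 biological replicates in each of the 4 groups (DMSO 2 h, dex 2 h, DMSO 36 h and dex 36 h). No other agent, age or genotype is given in the labels, and the line is a single established one. Total RNA of each sample in Cy5 was hybridised with a pool of the samples in Cy3, so a value of 0 means the level of the pool. Each value is the log of the sample's signal over the pool's, and no source used here states the log base, so base 2 was assumed.

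The 16 array medians lay between -0.011 and 0.0083. Residual SDs over all probes were 0.168 to 0.435 on the 2 h arrays and 0.108 to 0.205 on the 36 h arrays. The early arrays thus tended to be noisier. The reported fit gave each probe a single spread pooled from every group, so its SE for the dex change was equal at 2 and 36 h. The SEs and intervals below therefore do not reflect the noise of each time. They can be too small at 2 h where the early arrays of a probe were noisier. The array of DMSO 2 h replicate 4 correlated with the others of its group at a mean r of -0.10 across probes. The lowest correlation between any 2 of the 16 arrays was -0.338, and 2 of 120 pairs, both of a dex 36 h array with a DMSO 36 h array, lay below -0.3. The dyes are stated, so the direction was kept. With the values read as log2 of sample over pool, the mean ratio of Mogat1 over the 16 arrays was 0.992, near the 1 that a pool of the samples gives. It was 1.12 for natural logs, 2.50 for base 10, and 3.27 if pool over sample was meant. Over the 384 most variable probes the median of that mean was 0.976 with log2, 1.01 for natural logs, 1.26 for base 10 and 1.74 for pool over sample, so log2 and the natural log were not told apart. With the natural log every log2 change would be 1.443 times as large. Because the values are ratios to a pool, levels are not compared between genes, and signal over background is unknown.

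The largest changes were those of Mogat1 and Lpin1, whose products both make diacylglycerol. Mogat1 was at the pool's level at 2 h with and without dex, was 10.8-fold lower in DMSO at 36 h than in DMSO at 2 h, and was 18.3-fold higher with dex than with DMSO at 36 h. Lpin1 was higher with dex at 2 h and at 36 h on all 3 probes. Agpat2 was higher with dex at 36 h, Lpin2 fell on 1 of 2 probes between 2 and 36 h of dex, and Gpam, Gpd1, Lpin3, Dgat1 and Dgat2 passed in none of the 5 comparisons.

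Mogat1, encoding monoacylglycerol acyltransferase 1, had log2 ratios of -0.15, -0.07, 0.02 and 0.35 in DMSO 2 h replicates 1 to 4 and of -0.08, 0.27, 0.15 and 0.05 in dex 2 h. These groups overlapped, and the change with dex at 2 h was 0.07 ± 0.14 (SE, n = 4 per group, limma adjusted p = 0.918, 95% interval -0.24 to 0.37). In DMSO 36 h the ratios were -3.41, -3.23, -3.37 and -3.56, and in dex 36 h 1.19, 0.83, 0.65 and 0.52. All 4 DMSO 36 h arrays lay far below every other array. The group means were 0.03 ± 0.22 in DMSO 2 h, 0.10 ± 0.15 in dex 2 h, -3.40 ± 0.13 in DMSO 36 h and 0.80 ± 0.29 in dex 36 h (SD, n = 4 each). The vehicle mean at 36 h was thus 10.5-fold below the pool. In order, dex 36 h was highest, the 2 groups at 2 h did not differ beyond their spread, and DMSO 36 h was lowest.

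The change of Mogat1 with dex at 36 h was 4.19 ± 0.14 (SE, n = 4 per group). Over the same time the change was -3.43 ± 0.14 in DMSO and 0.70 ± 0.14 in dex. The dex comparison at 36 h and the change in DMSO share the DMSO 36 h arrays. The change in DMSO over time was larger in size than that in dex, which was 1.62-fold. The dex 36 h arrays lay above the dex 2 h arrays without overlap. Mogat1 has a single probe here, so no other probe of the gene stands beside these values.

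Lpin1 encodes lipin 1, a phosphatidic acid phosphatase that is also known as a transcriptional coregulator. On the probe numbered 1 the log2 ratios were -0.04, -0.31, -0.75 and -0.82 in DMSO 2 h and 0.38, 0.74, 0.60 and 0.49 in dex 2 h. At 36 h they were -0.91, -0.96, -0.67 and -0.78 in DMSO and 0.92, 0.88, 0.88 and 0.77 in dex. The dex arrays lay above the DMSO arrays at both times, and the DMSO 2 h arrays were the most spread. The changes with dex were 1.03 ± 0.15 at 2 h, or 2.05-fold, and 1.69 ± 0.15 at 36 h, or 3.23-fold (SE, n = 4 per group).

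The other probes of Lpin1 gave smaller changes at 36 h than at 2 h. Probe 2 had -0.31, -0.21, -0.55 and -0.62 in DMSO 2 h and 0.58, 0.79, 0.54 and 0.60 in dex 2 h, a change of 1.05 ± 0.13. Its values were -0.60, -0.55, -0.35 and -0.27 in DMSO 36 h and 0.48, 0.56, 0.58 and 0.08 in dex 36 h, a change of 0.87 ± 0.13. Replicate 4 was the lowest of the dex 36 h arrays on all 3 probes. Probe 3 changed by 0.67 ± 0.09 at 2 h, from -0.25 to -0.01 in DMSO against 0.49 to 0.56 in dex, and by 0.32 ± 0.09 at 36 h, from -0.16 to 0.12 against 0.15 to 0.39. On all 3 probes the dex arrays stood clear of the DMSO arrays at both times. Probe 3 at 36 h fell short of the threshold under the log-odds rule and without replicate 1, 2 or 4 of DMSO 36 h or replicate 1 or 3 of dex 36 h. As Lpin1 chose the set, this is a description and carries no test in any setting. Across the 16 arrays the probes correlated at r = 0.919 (1 with 2), 0.819 (1 with 3) and 0.952 (2 with 3), as a description over arrays that share groups. The mean of the 3 probes changed by 0.96 at 36 h, so the size of the late effect, and whether it was above or below the early one, depended on the probe.

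In DMSO over time Lpin1 changed by -0.35 ± 0.15, -0.02 ± 0.13 and 0.11 ± 0.09 on probes 1 to 3, and the same values in dex were 0.31 ± 0.15, -0.20 ± 0.13 and -0.24 ± 0.09 (SE, n = 4 per group). The vehicle levels of Lpin1 thus stayed within 0.35 of each other between 2 and 36 h, where that of Mogat1 fell by 3.43.

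**Figure D1:**
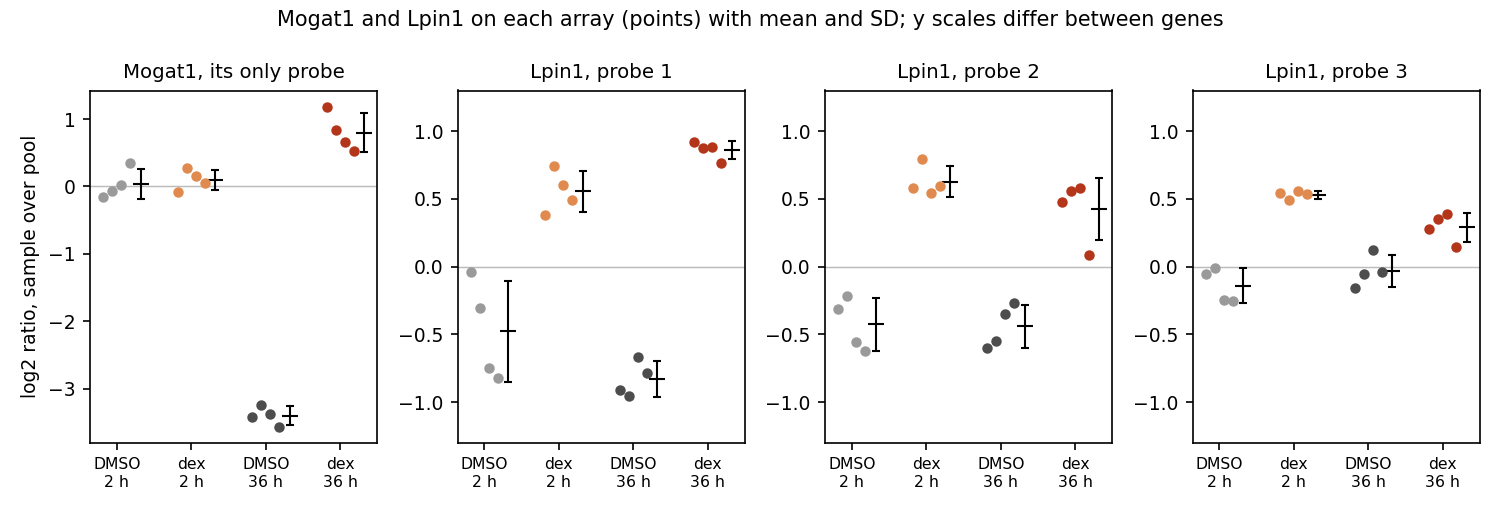
The plot gives the log2 ratio of sample over pool for Mogat1 and each Lpin1 probe on every array (points, grouped by treatment and time) with the group mean and SD (bars); the y scale of Mogat1 differs from that of Lpin1. The 4 DMSO 36 h arrays of Mogat1 lie between -3.56 and -3.23 and all its other arrays between -0.15 and 1.19, whereas Lpin1 separates by dex at both times.

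The sequence before the start of these 2 genes is shown because they carry the largest changes at 36 h and the glucocorticoid receptor binds DNA. The windows are the 250 bases before the RefSeq start in GRCm38.p6, 5′ to 3′ on the gene's strand, chr1:78510810-78511059 on the + strand for Mogat1 and chr12:16610967-16611216 on the - strand for Lpin1. Capitals mark the hexamer TGTTCT, the core of the glucocorticoid response element, searched on both strands (AGAACA on the other).
Mogat1: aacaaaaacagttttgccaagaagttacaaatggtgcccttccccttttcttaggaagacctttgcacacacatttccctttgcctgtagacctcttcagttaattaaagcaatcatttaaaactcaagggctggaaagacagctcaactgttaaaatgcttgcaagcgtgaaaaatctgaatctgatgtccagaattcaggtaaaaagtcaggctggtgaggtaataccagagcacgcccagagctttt
Lpin1: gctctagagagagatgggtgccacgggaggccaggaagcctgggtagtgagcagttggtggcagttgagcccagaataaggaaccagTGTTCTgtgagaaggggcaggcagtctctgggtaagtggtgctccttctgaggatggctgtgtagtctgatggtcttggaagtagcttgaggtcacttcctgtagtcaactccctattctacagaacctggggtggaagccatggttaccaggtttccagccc
The Lpin1 window held the hexamer once, starting 163 bases before the start of the gene, and the Mogat1 window did not hold these letters. Of all 32851 windows of this length in the table, 5284 or 16.1% held it. The full palindrome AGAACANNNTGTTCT, which contains the hexamer on both strands, was in 3 of them and in 0 of 10 member windows. Of those 10 windows 3 held the hexamer, 1 each of Lpin1, Lpin2 (of 3) and Lpin3 (of 2), and none of those of Agpat2 and Gpam did. The table had windows for 6 of the 9 genes, without Dgat1, Dgat2 and Gpd1. A match is a description of letters in this window, and response elements often lie outside it.

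Lpin2 and Lpin3 encode the other lipins, which have the same enzyme activity. On probe 1 of Lpin2 the ratios were 0.02, -0.05, -0.26 and -0.95 in DMSO 2 h and 0.36, 0.30, 0.43 and 0.16 in dex 2 h. On probe 2 they were -0.01, -0.01, 0.04 and -0.09 in DMSO 2 h and 0.25, 0.38, 0.27 and 0.25 in dex 2 h. All dex 2 h arrays thus lay above the DMSO 2 h arrays on both probes. The changes were 0.62 ± 0.16 (limma adjusted p = 0.0543) and 0.30 ± 0.14 (adjusted p = 0.442), so neither passed. With the mean of both probes, 0.46, the gene passed (limma adjusted p = 0.0255). Leaving out replicate 1, 2 or 4 of DMSO 2 h let probe 1 pass, with changes of 0.73, 0.71 and 0.41 (limma adjusted p = 0.0185, 0.036 and 0.0184). The range of its adjusted p over all settings was 0.00761 to 0.487.

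At 36 h probe 2 of Lpin2 had -0.04, -0.10, -0.26 and -0.42 in DMSO and -0.71, -0.06, -0.81 and -0.77 in dex. Of the 4 dex arrays 3 were the lowest and replicate 2 was within the DMSO range. The change was -0.38 ± 0.14 (limma adjusted p = 0.111), and -0.55 without dex 36 h replicate 2, which passed (adjusted p = 0.00157, 0.00157 to 0.344 over the alternatives). Probe 1 changed by -0.05 ± 0.16 (adjusted p = 0.955). From dex 2 h to dex 36 h, probe 2 fell by 0.87 ± 0.14, or 1.83-fold (n = 4 per group, limma adjusted p = 0.00455, 4 of 4 arrays lower), whereas probe 1 changed by -0.33 ± 0.16 and did not pass (adjusted p = 0.391), also with no overlap. The difference between the dex effects at 36 and 2 h was -0.68 ± 0.22 on probe 1 and -0.68 ± 0.20 on probe 2 (limma adjusted p = 0.159 and 0.0948). It passed with the mean of both probes (-0.68, adjusted p = 0.0225). The probes of Lpin2 correlated at r = 0.216 over the 16 arrays.

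Lpin3 had group means of 0.11 ± 0.28 in DMSO 2 h, 0.30 ± 0.13 in dex 2 h, 0.15 ± 0.11 in DMSO 36 h and -0.10 ± 0.27 in dex 36 h (SD, n = 4 each). The groups overlapped in both dex comparisons. Its changes with dex were 0.19 ± 0.14 at 2 h and -0.24 ± 0.14 at 36 h (SE, limma adjusted p = 0.696 and 0.374), with 95% intervals of -0.12 to 0.49 and -0.55 to 0.06.

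Agpat2, the acyltransferase that makes phosphatidic acid, showed no change at 2 h beyond its spread and was higher with dex at 36 h. On probe 1 the ratios were -0.19, -0.20, -0.17 and -0.25 in DMSO 36 h and 0.35, 0.15, 0.50 and 0.28 in dex 36 h. The 4 DMSO arrays were close together and below all dex arrays. The change was 0.52 ± 0.11, or 1.43-fold (SE, n = 4 per group, limma adjusted p = 0.00707). On probe 2 the ratios were -0.32, -0.14, -0.06 and -0.56 in DMSO and 0.19, 0.20, 0.81 and 0.28 in dex, again without overlap. Its change of 0.64 ± 0.19 was at the threshold (adjusted p = 0.0498, 0.00183 to 0.186 over the alternatives). Probe 2 passed in 9 of 24 settings, the reported one included. The call was lost when replicate 1, 3 or 4 of dex 36 h, replicate 3 of DMSO 2 h, or any array of DMSO 36 h or dex 2 h was left out, with the smallest change, 0.49, without dex 36 h replicate 3 (limma adjusted p = 0.186). Probe 1 passed in all 25 settings run.

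At 2 h the changes of Agpat2 were 0.0083 ± 0.11 and -0.18 ± 0.19 (limma adjusted p = 0.988 and 0.792), where DMSO 2 h replicate 1 at 0.87 stood above the others on probe 2. The dex effects at 36 and 2 h differed by 0.51 ± 0.15 and 0.82 ± 0.27 (limma adjusted p = 0.118 and 0.159), so a change of the effect between times was not shown. Probe 1 passed once DMSO 2 h replicate 4 was left out (0.60, adjusted p = 0.0309). It also passed under both other scalings and array weights (0.57 to 0.61, adjusted p = 0.0039 to 0.0127). Quantile normalization, 1 scale and array weights called 1405, 1414 and 1847 of all genes for this difference, against 683 in the reported fit. Probe 2 passed in 2 of 23 settings, with quantile normalization (0.88, adjusted p = 0.0382) and arrays set to 1 scale (0.80, adjusted p = 0.0338). The adjusted p over all settings was 0.0039 to 0.236 on probe 1 and 0.0338 to 0.302 on probe 2. Of the time changes, those in DMSO were -0.24 ± 0.11 and -0.49 ± 0.19, and those in dex 0.27 ± 0.11 and 0.33 ± 0.19, none of which passed (limma adjusted p = 0.41, 0.312, 0.285 and 0.505).

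Gpam had ratios of -0.24, -0.14, -0.12 and -0.17 in DMSO 36 h and 0.07, -0.02, 0.01 and -0.03 in dex 36 h on probe 1. The dex arrays were higher without overlap, but the change of 0.18 ± 0.12 did not pass (SE, n = 4 per group, limma adjusted p = 0.482). In a fit of the 36 h arrays alone, which leaves out the noisier early arrays, it passed (adjusted p = 0.0378, 0.0102 to 0.881 over the alternatives). That fit called 4555 of all genes at 36 h, against 2300 in the reported fit, so nothing particular to Gpam is read from it. Probe 2 gave -0.08 ± 0.14 (adjusted p = 0.867), with overlapping groups, and the probes correlated at r = -0.348 over the 16 arrays. At 2 h the changes were -0.0013 ± 0.12 and 0.07 ± 0.14 (adjusted p = 0.998 and 0.915).

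Gpd1, which supplies glycerol 3-phosphate, had group means of -0.19 ± 0.31, -0.09 ± 0.15, 0.11 ± 0.09 and -0.07 ± 0.09 in DMSO 2 h, dex 2 h, DMSO 36 h and dex 36 h (SD, n = 4 each). The groups overlapped at each time. Its changes with dex were 0.10 ± 0.13 and -0.18 ± 0.13 (SE, limma adjusted p = 0.841 and 0.512), with 95% intervals of -0.18 to 0.38 at 2 h and -0.45 to 0.10 at 36 h.

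For the last step, Dgat1 had ratios of 0.69, 0.39, 0.07 and -0.03 in DMSO 2 h and -0.00076, 0.12, -0.05 and 0.04 in dex 2 h. Its ratios were 0.17, 0.27, 0.11 and 0.13 in DMSO 36 h and -0.12, 0.23, -0.39 and 0.10 in dex 36 h. The groups overlapped at both times. The changes were -0.26 ± 0.15 and -0.21 ± 0.15 (SE, n = 4 per group, limma adjusted p = 0.583 and 0.477), with 95% intervals of -0.57 to 0.06 and -0.53 to 0.10. Dgat2, an unrelated enzyme of the same reaction whose family includes Mogat1, had means of -0.13 ± 0.55, 0.08 ± 0.15, 0.0044 ± 0.04 and -0.11 ± 0.09 in the same order of groups as Gpd1 (SD, n = 4 each). DMSO 2 h replicate 4 was its lowest array, at -0.90. Its changes were 0.20 ± 0.19 and -0.12 ± 0.19 (SE, limma adjusted p = 0.754 and 0.863), with intervals of -0.20 to 0.61 and -0.52 to 0.29. The intervals of Dgat1 and Dgat2 thus leave room for changes of up to about 0.6 in size at 2 h. They rest on the variance shared by all arrays, and both genes were most spread in DMSO 2 h.

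**Figure D2:**
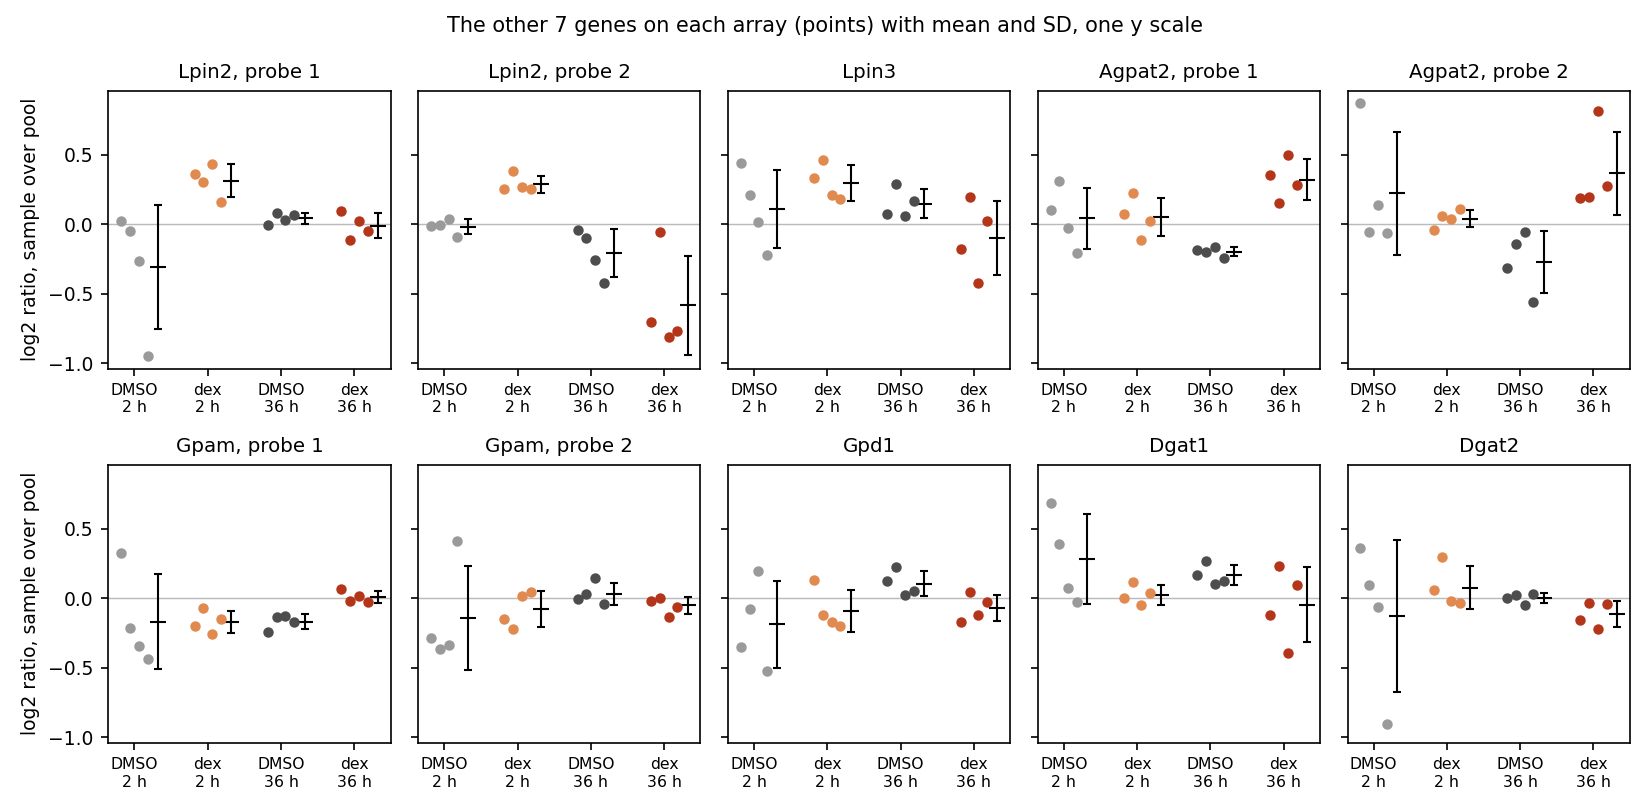
The plot gives the log2 ratio of sample over pool on every array (points) for the 10 probes of the other 7 genes, with group mean and SD (bars) on a single y scale. Agpat2 stands higher in dex 36 h than in DMSO 36 h on both probes, probe 2 of Lpin2 is low on 3 of 4 dex 36 h arrays, and the DMSO 2 h arrays are the most spread for most probes.

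**Figure D3:**
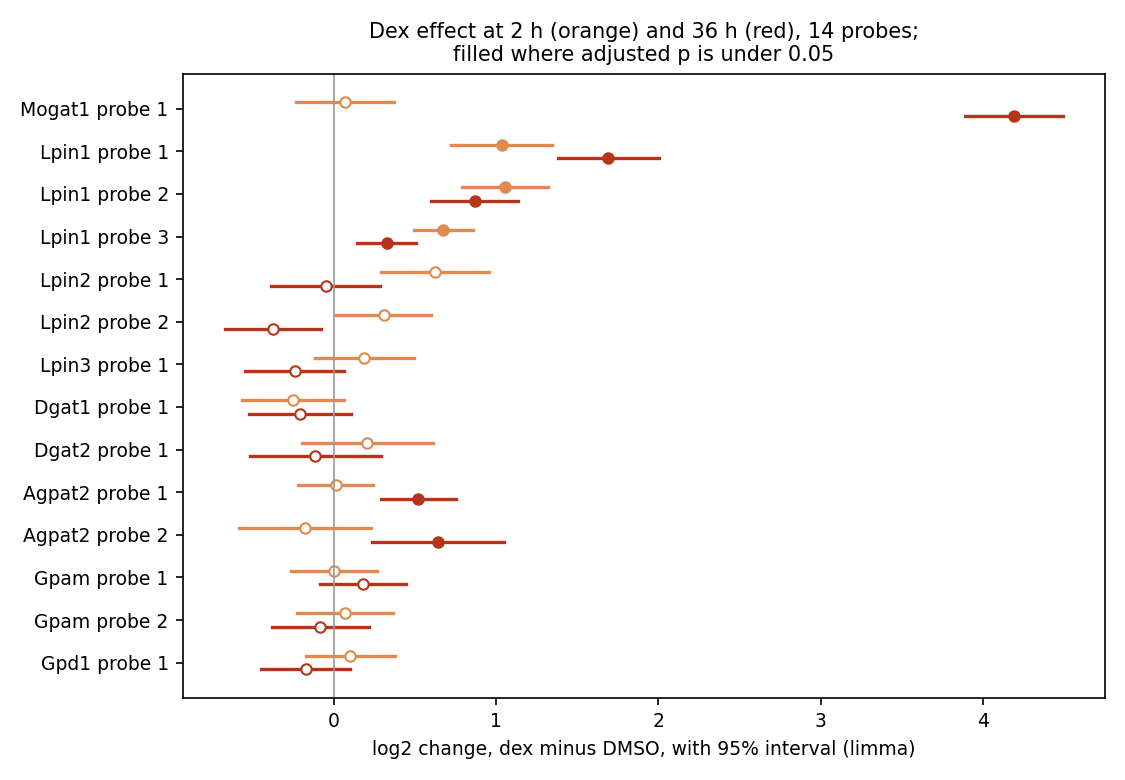
The plot gives the log2 change with dex and its 95% interval from limma at 2 h (orange) and 36 h (red) for the 14 probes, filled where the adjusted p is under 0.05. Mogat1 lies at 0.07 and 4.19, and Agpat2 is filled at 36 h. Lpin1 is filled at both times on all probes, though probe 3 at 36 h in 18 of 24 settings only. For Lpin1, and for Mogat1 at 36 h, the fill is a description without a test.

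A gene was called where at least 1 of its probes had a limma adjusted p under 0.05. At 2 h 1 of the 9 genes was called higher (Lpin1) and 0 lower, beside 1.97% and 1.21% of all genes. At 36 h 3 were called higher (Mogat1, Lpin1 and Agpat2) and 0 lower, beside 6.88% and 4.96%. Mogat1 and Lpin1 chose the set, so nothing is read from these counts. The median change over the 14 probes, those of Mogat1 and Lpin1 included, was 0.14 at 2 h and 0.06 at 36 h. Over all probes it was -0.0097 and -0.0043. For the same reason nothing is read from these medians or from the counts of probes without overlap that follow. The dex and DMSO arrays did not overlap for 5 of the 14 probes at 2 h (the 3 of Lpin1 and 2 of Lpin2), beside 5.88% of all probes, and for 7 at 36 h (those of Mogat1, Lpin1 and Agpat2 and 1 of Gpam), beside 26.8%.

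The dex effect on Mogat1 was 4.13 ± 0.20 higher at 36 h than at 2 h (SE, n = 4 per group), a difference that rests on the values that chose the gene and carries no test. Of the 7 genes that did not choose the set, 0 were called for this difference by limma and 2 (Lpin2 and Agpat2, on both probes each) had an unadjusted p under 0.05. The 0 called stand beside 2.12% of all genes called with a higher and 1.36% with a lower effect. The share of all genes with an unadjusted p under 0.05 was not computed, so nothing is read from the 2. In DMSO 1 gene was called lower at 36 h (Mogat1) and 0 higher, beside 0.993% and 0.270%, and the arrays were apart for 1 of 14 probes, beside 10.5%. In dex 1 gene was called higher at 36 h (Mogat1) and 1 lower (Lpin2), beside 1.04% and 1.41%, with 7 probes apart beside 11.9%. Without dex 2 h replicate 1, 3 or 4 or dex 36 h replicate 1, Mogat1 was not called in that comparison. The changes were then 0.64, 0.72, 0.68 and 0.57. Nor was it called with the replicate number as a block, with arrays set to 1 scale or in a fit of the dex arrays alone. It was called in 18 of 25 settings. Mogat1 and Lpin1 chose the set, so their calls over time carry no test, and nothing is read from these counts.

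With array weights, which count noisy arrays less, 8 of the 9 genes were called at 36 h, as were 9087 of all 19640 genes against 2300 in the reported fit, so nothing about the set is read from this count. Gpam was then called higher (0.20), and Lpin2, Lpin3, Dgat1 and Gpd1 lower (-0.44, -0.27, -0.24 and -0.21), where the reported changes of these 5 were 0.18, -0.38, -0.24, -0.21 and -0.18.

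**Figure D4:**
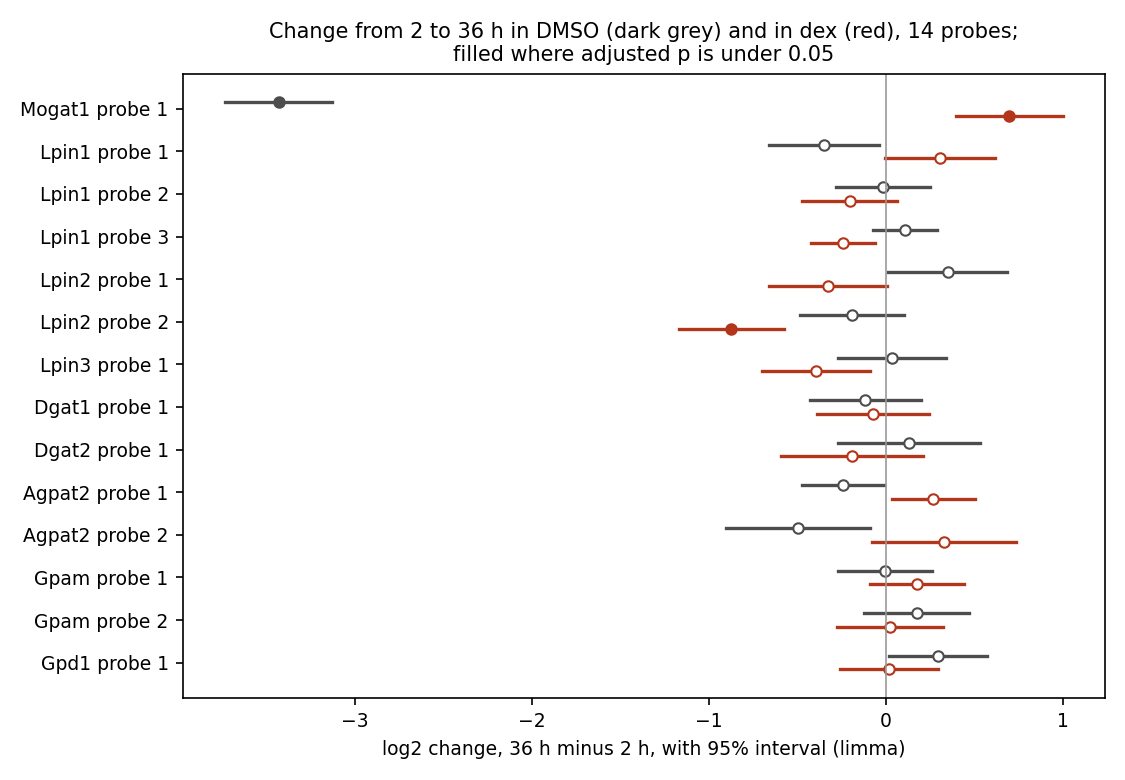
The plot gives the log2 change from 2 to 36 h and its 95% interval from limma in DMSO (dark grey) and in dex (red) for the 14 probes, filled where the adjusted p is under 0.05. Mogat1 changes by -3.43 in DMSO and by 0.70 in dex, and probe 2 of Lpin2 by -0.87 in dex.

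Other genes of glycerolipid metabolism were counted from 8 lists of 70 genes by role, of which 59 were measured. The lists were drawn up with earlier results of these data known. At 2 h 3 were called higher (Acsl4, Gpat4 and Plin4) and 0 lower, and at 36 h 6 were called higher (Tpi1, Plpp1, Pnpla2, Abhd5, Fitm2 and Plin4) and 2 lower (Plpp3 and Dgki). These shares stand beside 1.97% higher and 1.21% lower at 2 h and 6.88% and 4.96% at 36 h over all genes. The median change over the 59 was -0.0073 at 2 h and 0.0052 at 36 h, beside -0.0089 and -0.0012 over all genes, each gene taken as the mean of its probes.

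Among acyl-CoA synthetases, 1 of 6 rose at 2 h and 0 at 36 h. The riser was Acsl4, which activates polyunsaturated fatty acids, at 0.67 ± 0.14 (SE, n = 4 per group, limma adjusted p = 0.0114), with 4 other probes at 0.47 to 0.63, 1 of which passed. Of 9 other acyltransferases of glycerol 3-phosphate and lysophosphatidate, 1 rose at 2 h, Gpat4 of the endoplasmic reticulum (0.41 ± 0.07, adjusted p = 0.00484), and 0 passed at 36 h. Of 4 other genes of glycerol 3-phosphate supply, 0 passed at 2 h and Tpi1, a glycolytic enzyme, rose at 36 h by 0.26 ± 0.08 (adjusted p = 0.0451), its other probe giving 0.11.

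Of 5 other phosphatidate phosphatases and regulators of lipins, 0 passed at 2 h. At 36 h Plpp1 rose by 0.86 ± 0.11 (limma adjusted p = 1.63e-04) on all 3 probes, the others giving 0.51 and 0.75. Plpp3 fell by 0.52 ± 0.09 (adjusted p = 0.00205), its other probe giving -0.44. Both encode plasma membrane lipid phosphate phosphatases. Of 4 other acyltransferases of the last steps 0 passed at either time. Of 12 genes of other uses of diacylglycerol 1 fell at 36 h, the diacylglycerol kinase gene Dgki (-0.31 ± 0.08, adjusted p = 0.034).

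Of 9 genes of triglyceride and monoglyceride hydrolysis, 0 passed at 2 h and 2 rose at 36 h. Pnpla2, encoding adipose triglyceride lipase, rose by 1.17 ± 0.21 (limma adjusted p = 0.00221), with 3 other probes at -0.07 to 0.63, 2 of which passed. Abhd5, its coactivator, rose by 0.61 ± 0.10 (adjusted p = 7.99e-04). Of 10 lipid droplet genes, Plin4 was higher with dex at 2 h (0.57 ± 0.09, adjusted p = 0.0019) and at 36 h (1.42 ± 0.09, adjusted p = 7.05e-08). Its means were -0.0029 in DMSO and 0.57 in dex at 2 h, and -0.65 and 0.77 at 36 h. Of the 59 genes, 1 (Plin4) was called lower in DMSO over time and 0 higher, beside 0.993% and 0.270% of all genes. In dex over time 1 was called higher (Pnpla2) and 0 lower, beside 1.04% and 1.41%. Fitm2, which acts in droplet formation, was higher with dex at 36 h (0.80 ± 0.16, adjusted p = 0.00518, other probe 0.60). The median changes at 36 h were 0.04 over the hydrolysis list and 0.03 over the droplet list.

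**Figure D5:**
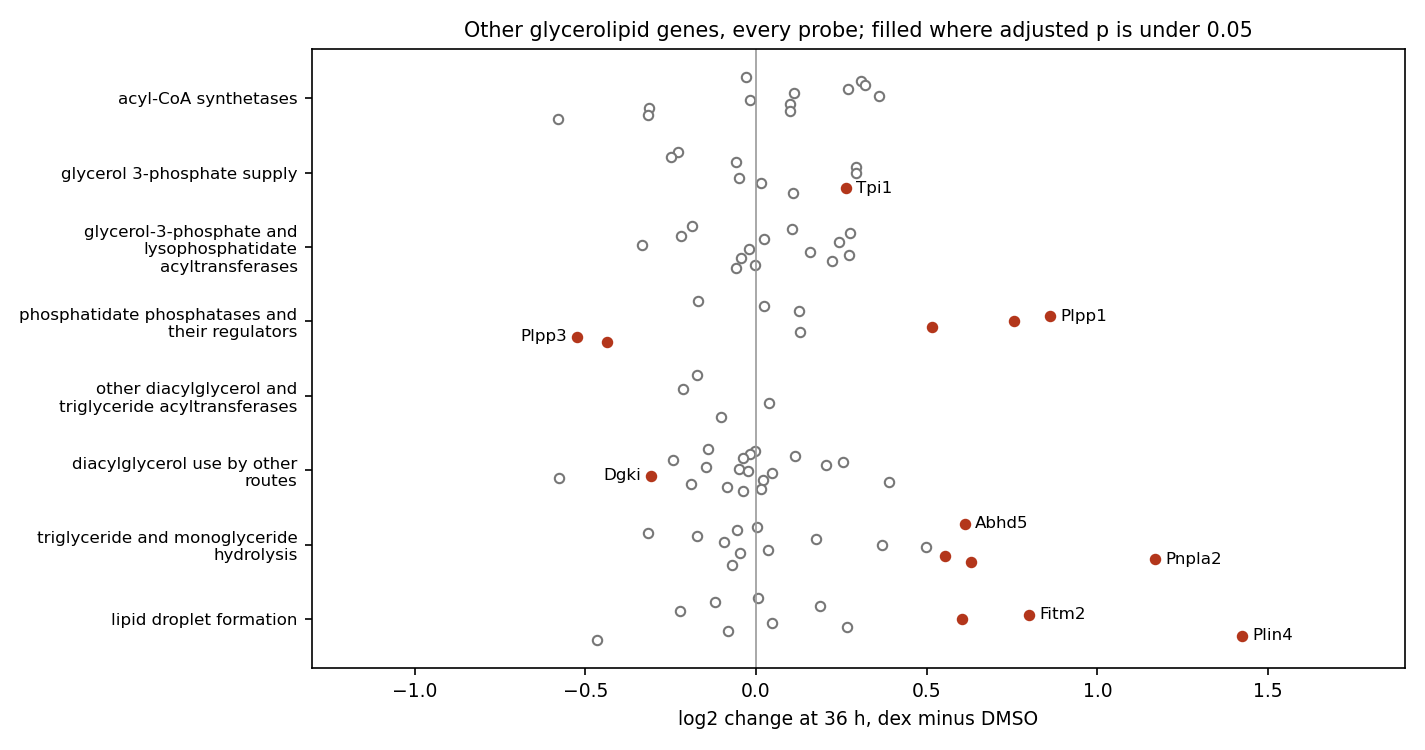
The plot gives the log2 change with dex at 36 h of every probe of the 59 other glycerolipid genes by role, filled where the limma adjusted p is under 0.05, with the names of called genes at their largest probe. Most probes lie near 0, and Plin4 at 1.42 and Pnpla2 at 1.17 are the highest.

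RNA came from whole cultures, so fewer cells of a kind and less RNA per cell cannot be told apart. Of 11 adipocyte markers 1 rose at 2 h (Fabp4) and 3 rose at 36 h (Cd36, Fabp4 and Pparg) with 0 falls, beside the percentages above, and their mean ratio lay between 0.0085 and 0.25 in dex 36 h, -0.38 and -0.31 in DMSO 36 h, -0.04 and 0.15 in dex 2 h and -0.20 and 0.08 in DMSO 2 h. Adipoq (0.19 ± 0.08, limma adjusted p = 0.211), Cidec (0.19 ± 0.17, adjusted p = 0.642) and Plin1 (0.05 ± 0.19, adjusted p = 0.971) did not pass at 36 h. Of the 11 adipocyte markers, 2 were called lower in DMSO at 36 h than at 2 h (Cd36 and Pparg) and 0 higher. Over all genes 0.993% were called lower and 0.270% higher there. Among the other marker lists, 1 epithelial marker (Krt8) was called lower in DMSO too. The mean of Mogat1 was also lower in DMSO at 36 h, as a description without a test. Of 9 preadipocyte or fibroblast markers 1 was lower with dex at 2 h (Pdgfrb) and 5 at 36 h (Dlk1, Pdgfrb, Col1a1, Col1a2 and Col3a1), with 0 higher. At 36 h their mean ratio was -0.14 to -0.03 in dex and 0.10 to 0.42 in DMSO. At 2 h it was -0.15 to -0.01 in dex and 0.0063 to 0.10 in DMSO. From 2 to 36 h 1 was called higher in DMSO (Col1a1) and 0 lower, beside 0.270% and 0.993% of all genes. In dex 0 passed, beside 1.04% of all genes called higher and 1.41% lower. The part of these markers in the changes of Mogat1, Lpin1 and Agpat2 was not tested. Of the 10 macrophage, 10 endothelial and 10 epithelial markers, 2, 1 and 0 fell and 0, 0 and 1 rose at 36 h, and 0 passed at 2 h. Ratios to a pool do not show whether a marker is present or absent in these cells.

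The genes whose ratios followed Mogat1 most closely over the 16 arrays were 1700018A23Rik (Pearson r = 0.981), Cog1 (0.976), Epb41l5 (0.976), Pacc1 (0.974) and Mrnip (0.972), as a description over arrays that share groups. Each had its lowest mean in DMSO 36 h, from -3.03 (1700018A23Rik) to -1.65 (Cog1), and its highest in dex 36 h. The other 2 probes of Cog1 followed Mogat1 too (r = 0.968 and 0.969), whereas the other probes of Epb41l5 and Mrnip did not (r = -0.419 and -0.122). In all, 76 probes of 71 genes outside the set reached r = 0.9 with Mogat1, and 197 probes of 170 genes did with Lpin1. Of the 34 genes near Mogat1 with several probes, 18 or 52.9% had another probe at 0.5 or more.

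For Lpin1, taken by its probe 1, the nearest genes were Ddit4 (r = 0.983), Megf9 (0.982), Dbn1, Cnnm3 and Slc43a3 (0.978 each). Their means were lowest in DMSO 36 h and highest in dex 36 h, and each was higher in dex 2 h than in DMSO 2 h. Ddit4, an inhibitor of mTORC1 signalling, had means of -0.72, 0.79, -1.16 and 1.04 in DMSO 2 h, dex 2 h, DMSO 36 h and dex 36 h. The other probes of Megf9 (r = 0.933) followed Lpin1, while those of Dbn1 (-0.206) and Slc43a3 (-0.25) did not, and those of Cnnm3 were mixed (0.28 and 0.921). Of the 92 genes near Lpin1 with several probes, 70 or 76.1% had another at 0.5 or more. The same share over all genes with several probes was not computed, so nothing is read from this share or from that near Mogat1.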

How the data were processed

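Gene expression was measured on 16 arrays with 2 colours. The authors deposited 1 log ratio per probe and array, used here as log2 of sample (Cy5) over pool (Cy3), and per the labels and the submitters' processing notes they used limma. For background correction, within-array normalization and log base, the method was not given in the sources used here. No further normalization or filter was applied. There were 131 missing values on 3 arrays, none in member probes.

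Of the probes, 29456 had 1 gene in the annotation, 760 had more than 1 and 8251 had none, and symbols were updated by Entrez ID for 28735 through a RefSeq table of GRCm38.p6. With limma 3.58.1 in R 4.3.3, means of the 4 groups were fitted over all 16 arrays (lmFit, eBayes, 12 residual and 3.19 prior degrees of freedom) without covariates, and p-values were adjusted by Benjamini-Hochberg over the 38467 probes of each of 5 contrasts. The fit was tested on simulated data. Probes of a gene are numbered by limma's F test over the dex contrasts, smallest p first. Every member is named, as are up to 3 called genes per list and dex contrast with the largest change, the listed adipocyte markers that a result turns on, and the 5 genes closest in pattern to Mogat1 and Lpin1. Members and lists were chosen with earlier results of these data known. Alternatives were the replicate number as a block, 2 other scalings, array weights, a robust prior, the log-odds rule of the study, fits of 2 groups, gene means over probes, and each array left out.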

Additional observations from a re-analysis of the deposited data

Results flagged for a closer look

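The dex effect on Mogat1 differed between the times, being larger at 36 h than at 2 h by 4.13 on the log2 scale, and Mogat1 was 1 of the genes by which the set was chosen.

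In 4 of 56 sets of 4 arrays, 1 array stood apart from its group by Dixon's criterion, and chance gives about 1 in 20. On probe 2 of Lpin2, replicate 2 was high in dex 2 h, at 0.38 against 0.25 to 0.27 in the others, and in dex 36 h, at -0.058 against -0.81 to -0.71. On probe 2 of Agpat2, replicate 3 of dex 36 h was high, at 0.81 against 0.19 to 0.28. On probe 2 of Gpam, replicate 4 of DMSO 2 h was high, at 0.42 against -0.36 to -0.29.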

How the results depend on the processing

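Of 1641 values of member probes under 24 alternatives, 1574 kept their side of the threshold, 28 lost the call, 39 gained it, and 0 called values changed sign. Among values called in neither setting, 47 changed sign. The change of Mogat1 with dex at 36 h was 3.94 to 5.09, and that of Lpin1 probe 1 at 2 h 0.92 to 1.18, both as descriptions of values that chose the set. That of Agpat2 probe 1 at 36 h was 0.46 to 0.59 and was called in each of 25 settings, the reported one included. The number of arrays and the noise of the 2 h arrays limit the precision.

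In the reported fit 625 genes were called at 2 h, 2300 at 36 h, 683 for the difference between times, 248 in DMSO over time and 478 in dex over time. With quantile normalization 4349, 1405, 750 and 819 were called in the last 4, and 4175, 1414, 680 and 939 with arrays set to 1 scale. With array weights the counts were 9087, 1847, 501 and 3973. The log-odds rule gave 1028 at 36 h. Fits of only the 2 groups compared gave 294 at 2 h, 4555 at 36 h, 94 in DMSO and 265 in dex over time.

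Called members numbered 2 instead of 1 at 2 h with quantile normalization, 1 scale, array weights or gene means. At 36 h they numbered 8 instead of 3 with array weights. For the difference between times they numbered 3, 4, 4 and 2 instead of 1 in that order of settings. In dex over time they numbered 1 instead of 2 with the replicate block, 1 scale and 2-group fits, and 6 with array weights. Other pathway genes called at 36 h numbered 15, 14, 31 and 14 instead of 8 with quantile normalization, 1 scale, array weights and 2-group fits, and 1 instead of 3 at 2 h with the last.

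With each array left out in turn, 1289 to 3082 genes were called at 36 h, 120 to 531 in DMSO over time and 167 to 822 in dex over time. At 36 h it was 1289 to 1490 without DMSO 36 h replicate 1, 2 or 4 or dex 36 h replicate 1 or 3. In DMSO over time it was 120 to 140 without any 1 of the DMSO 36 h arrays and 531 without DMSO 2 h replicate 4. In dex over time it was 771 and 822 without DMSO 2 h replicate 1 and 4, 208 to 313 without any 1 of the dex 2 h arrays, and 167 and 264 without dex 36 h replicate 1 and 3. Called members were 1 to 2 at 2 h, 1 to 3 for the difference between times (3 without DMSO 2 h replicate 4, 2 without dex 36 h replicate 2), 1 to 2 in DMSO and 1 to 2 in dex over time, and pathway genes at 2 h 3 to 5 (5 without DMSO 2 h replicate 4). Same-numbered arrays of different groups correlated at -0.103 to 0.344 in their deviations from group means, with 5 of 24 above 0.1. Between dex and DMSO of the same time, r was 0.19 and 0.255 for replicates 2 and 4 at 2 h. It was 0.344 and 0.224 for replicates 2 and 3 at 36 h. The other same-time pairs lay between -0.103 and 0.041. Whether arrays were paired within a time was not tested. In 8 of the 24 same-numbered pairs, an array's closest match in the other group had its own number. With the block, Agpat2 probe 2 at 36 h (0.64, limma adjusted p = 0.0612) and Mogat1 in dex over time (0.70, as a description) were not called.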
